A study of Homo sapiens with 4 samples.

Results

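Genes that human cells switch on when oxygen is low, other than those of glycolysis, were followed in PC3 cells after siRNA against COUP-TFII. The set held 10 genes, CA9, BNIP3, BNIP3L, NDRG1, ADM, EGLN1, EGLN3, ANKRD37, KDM3A and P4HA1. They were taken by name as well-known hypoxia-induced genes, although earlier results of these data were known. A probe set counted for a gene where the platform table gives it to that gene alone. This found 18 probe sets for 9 of the 10 genes, out of 19775 genes and 54613 probe sets tested. No probe set was named for CA9, a carbonic anhydrase of the cell surface, and it was not analysed here. Of the 9 genes, 7 had more than 1 probe set, and each gene was represented by its brightest one, leaving out those marked _x_at (open to cross-hybridisation).

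PC3 is a prostate cancer cell line that was derived from a bone metastasis. The COUP-TFII siRNA group and the control siRNA group each held 2 arrays, with siRNA duplexes at 40 nM in both and RNA taken at 48 h. All cells were grown in RPMI medium with serum, and no oxygen level is stated in the labels. The labels do not say whether the arrays of a group came from separate transfections, so the p-values reflect the scatter among these arrays alone, and it may be technical.

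Hypoxia-inducible factor, HIF, is a pair of an alpha subunit (HIF1A or EPAS1) and the beta subunit ARNT. With oxygen present, prolyl hydroxylases of the EGLN family mark the alpha subunit, the VHL ubiquitin ligase recognises the mark, and the subunit is degraded. When oxygen is short the alpha subunit accumulates and the pair binds a short DNA core, ACGTG or GCGTG, at its target genes. Much of this control acts on the protein, which arrays do not measure. Among its targets, EGLN1 and EGLN3 feed back on HIF, while BNIP3 and BNIP3L tag mitochondria for removal.

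The arrays were alike in overall brightness, with medians of 31.7 to 32.9 in the authors' linear intensity units. On the log2 scale, arrays correlated across genes at r = 0.9918 within the COUP-TFII siRNA group, at 0.9915 within the control siRNA group and at 0.9788 to 0.9814 between groups. For ACTB, the 3′ over 5′ ratio of control probe sets, which reports on RNA integrity, was 1.44 ± 0.03 in COUP-TFII siRNA arrays and 1.67 ± 0.22 in control siRNA arrays (SD, n = 2 each), without overlap. With 2 arrays against 2, the smallest two-sided p of an exact permutation test is 0.333. For GAPDH it was 0.990 ± 0.005 in COUP-TFII siRNA arrays and 0.971 ± 0.021 in control siRNA arrays. The part of RNA integrity in the results below was not tested. Epithelial keratins marked the cells on every array (KRT18 at 9697 and 9941 in COUP-TFII siRNA arrays, against 8805 and 9103 in control siRNA arrays). KLK2 and KLK3, products of androgen-responsive prostate cells, stayed at or below 25.9, whereas TMPRSS2 stood at 391 and 392 in COUP-TFII siRNA arrays, against 132 and 157 in control siRNA arrays. The 3 leukocyte markers measured stayed at or below 42.3, and of the 4 endothelial markers only PECAM1, at 171 to 244, exceeded 19.6. Of 5 fibroblast markers, 4 stayed at or below 85.3, and the collagen gene COL1A1 rose, at 962 and 949.6 in COUP-TFII siRNA arrays, against 599 and 540.3 in control siRNA arrays. The part of other cell types in the results was not tested. The level of the transcript targeted by the siRNA is not reported here, so the siRNA labels were not checked against it.

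COUP-TFII siRNA was followed by changes in both directions among the hypoxia-induced genes, most of them small. ADM, ANKRD37 and KDM3A rose, P4HA1, BNIP3 and NDRG1 fell, and BNIP3L, EGLN1 and EGLN3 did not pass the test. Thus 6 of 9 genes had an adjusted p under 0.05 in limma, with the Benjamini-Hochberg adjustment made over all genes, against 23% of all genes. Of all genes, 12.7% passed as higher and 10.3% as lower. Bright genes passed more often. Among genes above the median level 42.1% passed, and 8 of the 9 genes lay above that level, EGLN3 being the exception. The median log2 fold change was 0.08 over the 9 genes and 0.01 over all genes. The median size of the change, whatever its direction, was 0.30 over the 9 genes and 0.22 over all genes. Groups did not overlap for 8 of the 9 genes, EGLN1 being the exception, against 57.5% of all genes. They also did not overlap for 16 of 19 housekeeping genes (84.2%). For genes above the median level this share was not computed. Only ADM changed by more than 1.5-fold. Its change was also the only one of the 9 to exceed that of 90% of all genes (0.61 on the log2 scale).

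**Figure D1:**
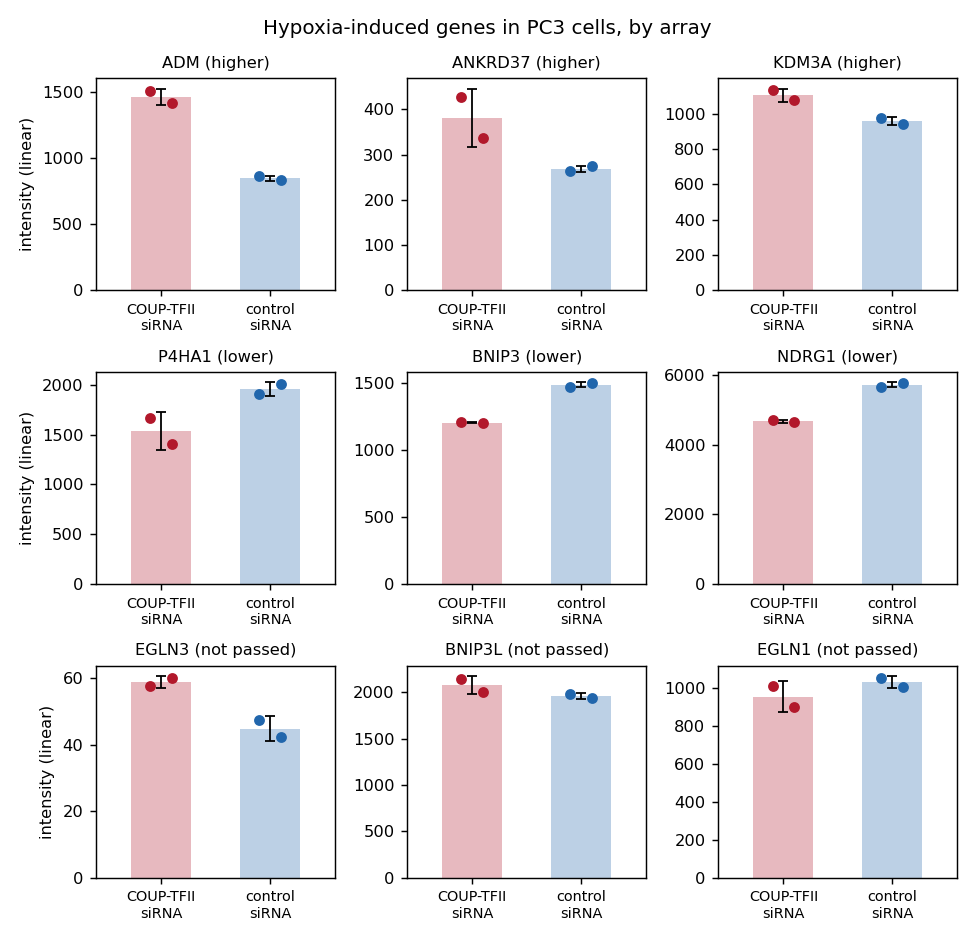
Intensity on a linear scale (y axis) of the probe set that represents each of the 9 genes, with COUP-TFII siRNA on the left and control siRNA on the right of each panel. Points are arrays, bars are means of 2 arrays and whiskers are the SD. ADM stands at 1512 and 1423 with COUP-TFII siRNA, against 863 and 834 with control siRNA, and EGLN1 is the gene whose groups overlap.

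Short stretches before the start sites are shown for the genes in which the HIF core was found, because the core was present both in genes that rose and in genes that fell. RefSeq promoters (GRCh38.p14, 250 bases before to 50 after the start) were held for 7 of the 9 genes, the others being BNIP3L and NDRG1. The start furthest 5′ was taken for each of these genes, whereas the shares below count all 35116 promoters, without matching for base composition. ACGTG was searched on both strands, as ACGTG or CACGT, and was found in 4 of the 7, ANKRD37, BNIP3, P4HA1 and EGLN1, against 21.4% of 35116 promoters. GCGTG, or CACGC on the other strand, was found in 3 of the 7, ADM, KDM3A and BNIP3, against 36.5% of promoters. The nuclear receptor half-site AGGTCA, or TGACCT, to which COUP-TF proteins are among those known to bind, was found in 0 of the 7, against 13.8% of promoters. The lines below read 5′ to 3′ on the strand of the gene, with each match to a HIF core in capitals, and CACGTG counts as ACGTG on both strands. A match is only a run of letters, and matches outside these windows were not searched.
ADM (rose; chr11:10304942-10305006, plus strand): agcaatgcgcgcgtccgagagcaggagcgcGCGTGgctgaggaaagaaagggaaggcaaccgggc
ANKRD37 (rose; chr4:185396668-185396732, plus strand): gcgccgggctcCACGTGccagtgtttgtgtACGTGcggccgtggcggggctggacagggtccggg
KDM3A (rose; chr2:86441315-86441370, plus strand): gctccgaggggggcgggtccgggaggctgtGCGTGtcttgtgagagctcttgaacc
BNIP3 (fell; chr10:131982022-131982086, minus strand): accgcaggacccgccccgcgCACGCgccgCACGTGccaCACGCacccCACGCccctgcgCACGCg
P4HA1 (fell; chr10:73096918-73096982, minus strand): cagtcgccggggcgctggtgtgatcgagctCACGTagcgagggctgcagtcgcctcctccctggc
EGLN1 (did not pass; chr1:231422288-231422330, minus strand): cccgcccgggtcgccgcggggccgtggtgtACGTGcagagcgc
The ADM core begins 101 bases before the start site, and the EGLN1 core begins 13 bases before it. BNIP3, which fell, holds 4 matches to GCGTG beside its CACGTG, and ANKRD37, which rose, holds a CACGTG and a further ACGTG. EGLN3 held neither core in this window.

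ADM, which encodes the secreted vasodilator peptide adrenomedullin, had the largest change of the 9 genes. Its intensity was 1512 and 1423 in COUP-TFII siRNA arrays, against 863 and 834 in control siRNA arrays. Both COUP-TFII siRNA arrays were thus well above both control siRNA arrays, and the gap was wider than the spread within either group. The log2 fold change was 0.78 ± 0.06 (SE; 95% interval 0.64 to 0.92; limma adjusted p = 3.83e-05), or 1.71-fold on the log2(value + 16) scale. ADM has a single probe set. The genes of its receptor, CALCRL and its partner proteins RAMP1, RAMP2 and RAMP3, gave 0 of 4 calls, and 0 of 4 at an unadjusted p under 0.05 (limma). RAMP1 was the bright member, at 809 and 834 in COUP-TFII siRNA arrays, against 814 and 776 in control siRNA arrays. CALCRL, RAMP2 and RAMP3 were at or below 21.1 on every array.

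The 2 HIF prolyl hydroxylases of the set, EGLN1 and EGLN3, did not pass. EGLN1, the main prolyl hydroxylase that marks HIF alpha subunits, stood at 1010 and 896 in COUP-TFII siRNA arrays, against 1051 and 1005 in control siRNA arrays. These ranges overlap, and the log2 fold change was −0.11 with a 95% interval of −0.28 to 0.06 (limma adjusted p = 0.354). All 4 EGLN1 probe sets overlapped between groups, with log2 fold changes of −0.11 to −0.02. EGLN3, a second HIF prolyl hydroxylase and itself strongly hypoxia-induced in many cells, was dim. It stood at 57.8 and 60.2 in COUP-TFII siRNA arrays, against 47.5 and 42.3 in control siRNA arrays. Its other probe set went the other way, at 47.2 and 49.0 in COUP-TFII siRNA arrays, against 57.8 and 49.5 in control siRNA arrays. Neither probe set passed (limma adjusted p = 0.404 and 0.790 over all probe sets), so no direction is given for EGLN3.

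BNIP3 and BNIP3L encode related mitochondrial outer membrane proteins that recruit the autophagy machinery. BNIP3 stood at 1210 and 1203 in COUP-TFII siRNA arrays, against 1476 and 1503 in control siRNA arrays. It was lower in both COUP-TFII siRNA arrays, with a change of −0.30 ± 0.06 on the log2 scale (SE; limma adjusted p = 0.00417). BNIP3 did not pass without control siRNA replicate 1 or 2 (limma adjusted p = 0.0638 and 0.0827). Its other probe set stood at 1235 and 1102 in COUP-TFII siRNA arrays, against 1375 and 1423 in control siRNA arrays, again without overlap, and just missed the threshold over all probe sets (limma adjusted p = 0.0539). BNIP3L stood at 2148 and 2010 in COUP-TFII siRNA arrays, against 1987 and 1939 in control siRNA arrays. Its log2 fold change was 0.08 with a 95% interval of −0.04 to 0.21 (limma adjusted p = 0.370), and its other probe set overlapped between groups. The change of BNIP3 was 0.38 below that of BNIP3L on the log2 scale, and the difference between both genes did not overlap between the groups. The exact permutation test of that difference gave a two-sided p of 0.333, the smallest that 2 arrays against 2 allow, as it did for each of the 5 gene pairs so tested.

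Among 15 measured genes of mitophagy and autophagy that work with BNIP3, 7 rose, 1 fell and 7 did not pass, and the median change (log2) was 0.21. Thus 53.3% passed, against 23% of all genes and 42.1% of genes above the median level. PINK1, a kinase that marks damaged mitochondria, stood at 1691 and 1627 in COUP-TFII siRNA arrays, against 1014 and 1033 in control siRNA arrays. Both of its probe sets passed as higher. SQSTM1, an autophagy receptor for ubiquitinated cargo, stood at 6425 and 6273 in COUP-TFII siRNA arrays, against 3848 and 4036 in control siRNA arrays, with 2 of its 5 probe sets higher and 3 not passing. Both genes had a log2 fold change of 0.69 (limma adjusted p = 4.81e-05 for PINK1 and 1.6e-05 for SQSTM1). OPTN, another autophagy receptor, and BECN1, a subunit of the lipid kinase that starts autophagosomes, rose by 0.49 ± 0.08 and 0.46 ± 0.09 (SE, log2 scale). BECN1 fell short with averaged probe sets (log2 fold change 0.18) and in 3 of the 4 fits with an array left out (limma adjusted p = 0.0657 to 0.0994), and OPTN without control siRNA replicate 2 or COUP-TFII siRNA replicate 1 (0.0536 and 0.0515). The genes that rose work in a pathway that BNIP3 joins, while BNIP3 itself was lower.

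P4HA1 encodes the catalytic subunit of collagen prolyl 4-hydroxylase, an enzyme of the endoplasmic reticulum that is distinct from the EGLN enzymes. It stood at 1670 and 1404 in COUP-TFII siRNA arrays, against 1906 and 2005 in control siRNA arrays. Both COUP-TFII siRNA arrays were lower, although they differed from each other more than the control siRNA arrays did. The log2 fold change was −0.35 ± 0.08 (SE; limma adjusted p = 0.0132). It was −0.22 without COUP-TFII siRNA replicate 2 (limma adjusted p = 0.0844), and P4HA1 also did not pass without either control siRNA array (0.116 and 0.190). Its other probe set was dim, with a mean of 7.62, and P4HA1 did not pass when both were averaged (log2 fold change −0.27; limma adjusted p = 0.170).

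Other genes that modify and fold collagen chains changed in both directions. Of 14 measured, 6 fell, 1 rose and 7 did not pass, and the median change (log2) was −0.22. The share that passed was 50%, against 23% of all genes and 42.1% of genes above the median level. CRTAP, which assists prolyl 3-hydroxylation of collagen, stood at 869 and 1020 in COUP-TFII siRNA arrays, against 2105 and 2091 in control siRNA arrays. Its log2 fold change was −1.14 ± 0.08 (SE; limma adjusted p = 1.48e-05), and 4 of its 5 probe sets were called lower. COLGALT1, a collagen galactosyltransferase, stood at 438 and 441 in COUP-TFII siRNA arrays, against 720.4 and 757 in control siRNA arrays. P4HA2, an alternative catalytic subunit to P4HA1, fell by 0.48 ± 0.07 (SE, log2 scale), and the third, P4HA3, rose by 0.55 ± 0.13. The P4HA2 change was −0.23 and the P4HA3 change 0.28 with averaged probe sets, where neither passed, and leaving out any 1 array also ended the call on P4HA3 (limma adjusted p = 0.0755 to 0.127). P4HB, the beta subunit that pairs with all 3 and is named after its value was seen, stood at 3457 and 3613 in COUP-TFII siRNA arrays, against 4414 and 4731 in control siRNA arrays. P4HB thus fell by 0.37 ± 0.05 (SE, log2 scale), as P4HA1 did. P4HA2 missed the threshold without control siRNA replicate 1 and P4HB without control siRNA replicate 2 (limma adjusted p = 0.0549 and 0.0553).

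KDM3A encodes a histone demethylase that removes a repressive methyl mark from chromatin. It stood at 1131 and 1077 in COUP-TFII siRNA arrays, against 973 and 942 in control siRNA arrays. Both COUP-TFII siRNA arrays were higher, by 0.20 ± 0.06 on the log2 scale (SE; limma adjusted p = 0.0452). This call was the weakest of the 6. Leaving out any 1 array ended it (limma adjusted p = 0.0830 to 0.258), and over all probe sets the same values gave 0.0736. The other KDM3A probe set was at or below 10.8 on every array, and averaging both turned the sign, to −0.022 (limma adjusted p = 0.934).

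ANKRD37, a small ankyrin repeat protein of little known function, stood at 427 and 336 in COUP-TFII siRNA arrays, against 264 and 274 in control siRNA arrays. Both COUP-TFII siRNA arrays were higher but far apart, and the change was 0.47 ± 0.12 on the log2 scale (SE; limma adjusted p = 0.0193). It was 0.30 without COUP-TFII siRNA replicate 1 and 0.64 without replicate 2, and only the second of these fits passed (limma adjusted p = 0.137 and 0.0257). It also did not pass without control siRNA replicate 1 or 2 (0.169 and 0.147). With averaged probe sets the change was 0.097 (limma adjusted p = 0.689). Its other probe set, at or below 20.2 on every array, was lower in COUP-TFII siRNA arrays and did not pass.

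NDRG1, a stress-responsive protein that hypoxia and differentiation are known to induce, was bright and steady. It stood at 4699 and 4645 in COUP-TFII siRNA arrays, against 5666 and 5768 in control siRNA arrays. The groups were well apart, with a change of −0.29 ± 0.04 on the log2 scale (SE; limma adjusted p = 0.00131), from a single probe set. NDRG1 had an adjusted p of 0.0651 without control siRNA replicate 2 (limma).

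**Figure D2:**
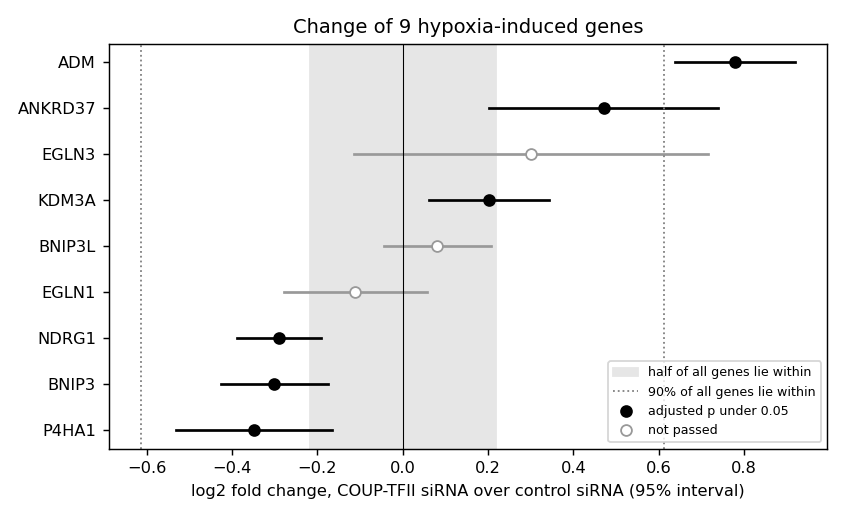
Log2 fold change of each gene (x axis, COUP-TFII siRNA over control siRNA) with its 95% interval from limma, for 2 arrays in each group. Filled points passed an adjusted p of 0.05, the grey band spans ±0.22, the median size of change over all genes, and dotted lines at ±0.61 enclose 90% of all genes. ADM alone lies beyond the dotted lines, and the 3 genes that fell lie between −0.35 and −0.29.

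Across all their probe sets, the 9 genes gave 2 calls higher and 3 lower out of 18, against 12.2% of all probe sets. Of the 18, 12 had means above that of the median gene, and the share among probe sets of like brightness was not computed. With arrays centred on the median of housekeeping genes, the split was 3 higher and 0 lower of the 18 probe sets, and 3 higher and 1 lower of the 9 genes, where BNIP3 and NDRG1 did not pass. The call on KDM3A was the 1 that differed between the fit over genes and the fit over probe sets. Of the 9 probe sets that did not represent their gene, 4 had means under 20, and 0 of the 9 passed at the adjusted p of 0.05 (limma).

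**Figure D3:**
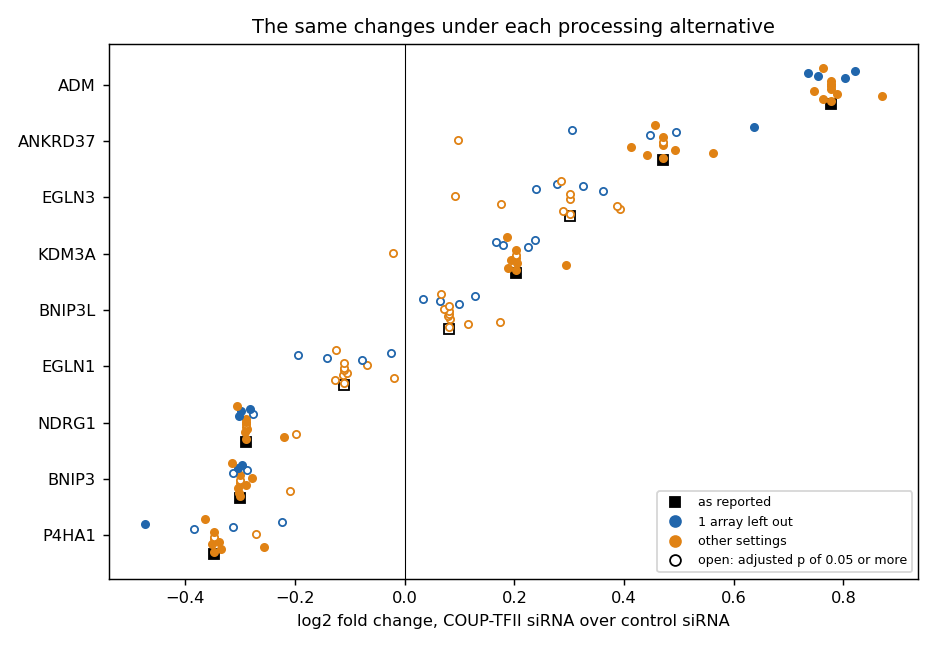
Log2 fold change of each gene (x axis) as reported (squares), with 1 array left out (blue) and under other settings (orange). Open symbols have an adjusted p of 0.05 or more. ADM lies between 0.74 and 0.87 with every symbol filled, whereas KDM3A crosses 0 when its probe sets are averaged.

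The genes of the HIF pathway itself were then examined. HIF1A, the alpha subunit found in most cells, stood at 4085 and 3841 in COUP-TFII siRNA arrays, against 5568 and 5152 in control siRNA arrays. Both COUP-TFII siRNA arrays were lower, by 0.43 ± 0.05 on the log2 scale (SE; limma adjusted p = 0.000531), on its single probe set. HIF1A passed with each array left out (limma adjusted p = 0.0193 to 0.0393). With 1 prior variance for all genes, HIF1A did not pass (limma adjusted p = 0.0780). EPAS1, the other main alpha subunit, stood at 3452 and 3029 in COUP-TFII siRNA arrays, against 3227 and 3183 in control siRNA arrays. These groups overlap, and the 95% interval of its change was −0.13 to 0.16 on the log2 scale.

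Of the 11 genes of HIF subunits and oxygen sensing, 4 rose, 1 fell and 6 did not pass, and the median change (log2) was 0.19. The share that passed was 45.5%, against 23% of all genes and 42.1% of genes above the median level. ARNT, the shared beta subunit, stood at 150 and 166 in COUP-TFII siRNA arrays, against 103 and 109.7 in control siRNA arrays, and 1 of its 7 probe sets passed. HIF1AN, the asparaginyl hydroxylase that blocks HIF coactivator binding, stood at 466 and 439 in COUP-TFII siRNA arrays, against 319 and 348 in control siRNA arrays. CITED2, which competes with HIF for those coactivators, stood at 324 and 317 in COUP-TFII siRNA arrays, against 259 and 228 in control siRNA arrays. The coactivator gene EP300 stood at 389.7 and 354 in COUP-TFII siRNA arrays, against 307 and 238 in control siRNA arrays. All 4 were thus higher in both COUP-TFII siRNA arrays, by 0.51 ± 0.13, 0.42 ± 0.09, 0.38 ± 0.10 and 0.44 ± 0.12 in that order (SE, log2 scale). Leaving out any 1 array ended the calls on ARNT, HIF1AN and CITED2 (limma adjusted p = 0.0541 to 0.194). EP300 kept its call without control siRNA replicate 1 and lost it without each of the other arrays (0.151 to 0.270), and neither of its 2 probe sets passed over all probe sets.

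VHL, the recognition subunit of the ubiquitin ligase for hydroxylated HIF, stood at 349 and 322 in COUP-TFII siRNA arrays, against 263 and 276 in control siRNA arrays. The groups did not overlap, and the adjusted p of 0.0507 (limma) just missed the threshold, which was crossed in 5 of the 14 alternatives, with the range over them at 0.00949 to 0.635. CREBBP, a coactivator related to EP300, overlapped between groups at a log2 fold change of −0.17 ± 0.11 (SE). HIF3A, ARNT2 and EGLN2 were dim, at or below 44.0 on every array. Other EGLN2 probe sets are assigned to several genes and were not used.

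Further hypoxia-induced genes outside glycolysis also split. Of 28 measured, 5 rose, 3 fell and 20 did not pass. The median change (log2) was −0.02, and 28.6% passed, against 23% of all genes. HMOX1, heme oxygenase, stood at 215 and 232 in COUP-TFII siRNA arrays, against 86.0 and 90.4 in control siRNA arrays, higher by 1.20 ± 0.13 on the log2 scale (SE; limma adjusted p = 0.0002). MXI1, an antagonist of MYC, stood at 711 and 642 in COUP-TFII siRNA arrays, against 482 and 467 in control siRNA arrays, and missed the threshold without control siRNA replicate 2 (limma adjusted p = 0.0556). STC1, the secreted protein stanniocalcin, stood at 34.1 and 35.3 in COUP-TFII siRNA arrays, against 104 and 115 in control siRNA arrays. PLIN2, which coats lipid droplets, stood at 247 and 251 in COUP-TFII siRNA arrays, against 424 and 423 in control siRNA arrays. STC1 fell by 1.31 ± 0.17 and PLIN2 by 0.73 ± 0.09 (SE, log2 scale), and both fell by more than any of the 9 genes. The STC1 change was −0.81 with 64 added before the logarithm, and PLIN2 did not pass with averaged probe sets (log2 fold change −0.35; limma adjusted p = 0.126).

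Glycolysis genes, many of which are also HIF targets, gave 3 higher, 7 lower and 11 not passing out of 21 measured, with a median of −0.12. Thus 47.6% passed, against 23% of all genes and 42.1% of genes above the median level. PDK1, a kinase limiting pyruvate use by mitochondria, stood at 229 and 226 in COUP-TFII siRNA arrays, against 354 and 354 in control siRNA arrays. Of its 3 probe sets, 1 passed. PFKP, a phosphofructokinase subunit, fell by 0.41 ± 0.08 (SE, log2 scale), and its change was −0.08 with averaged probe sets (limma adjusted p = 0.785). PFKFB3 and PFKFB4, which make and break down the activator of phosphofructokinase, rose by 0.46 ± 0.08 and 0.43 ± 0.07. All 3 of these genes missed the threshold without control siRNA replicate 2, PFKP also without control siRNA replicate 1 and PFKFB3 without COUP-TFII siRNA replicate 1 (limma adjusted p = 0.0561 to 0.0955). Whether the lists differ from each other was not tested, and their medians are given as descriptions.

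**Figure D4:**
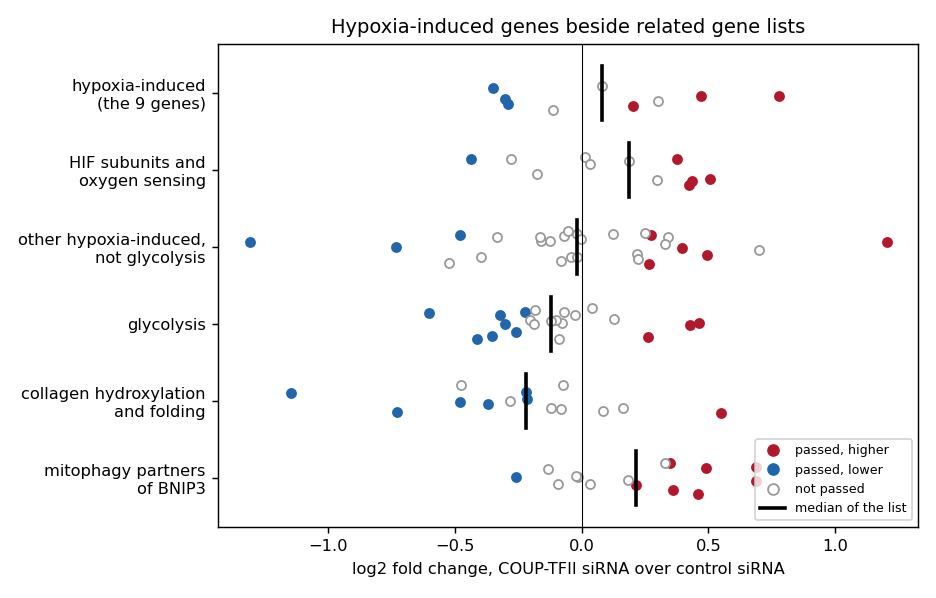
Log2 fold change (x axis, COUP-TFII siRNA over control siRNA) of each gene in 6 lists, with red for genes that passed as higher, blue for genes that passed as lower, open points for genes that did not pass, and a black bar at each list's median. Vertical scatter within a list carries no meaning. The medians run from −0.22 for collagen hydroxylation to 0.21 for mitophagy partners, and every list holds genes that passed in each direction.

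Among 15 measured relatives of the 10 genes, those of CA9 included, 3 rose, 2 fell and 10 did not pass. The share that passed was 33.3%, against 23% of all genes. NDRG4, a relative of NDRG1, stood at 184 and 167 in COUP-TFII siRNA arrays, against 87.2 and 69.4 in control siRNA arrays. It rose by 1.03 ± 0.15 (SE, log2 scale), while NDRG1 fell by 0.29. CA13, a cytosolic carbonic anhydrase, stood at 96.9 and 83.0 in COUP-TFII siRNA arrays, against 175 and 186 in control siRNA arrays, and its change of −0.89 was −0.41 with averaged probe sets. NDRG4 missed the threshold without COUP-TFII siRNA replicate 1 (limma adjusted p = 0.0570) and CA13 without control siRNA replicate 2 (0.0530).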

How the data were processed

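Biotin-labelled cRNA from total RNA of PC3 cells was measured on Affymetrix arrays with 1 colour, per the labels' protocols. The authors deposited linear intensities for each probe set (0.61 to 15890). How they were summarised and normalized is not given in the sources used here. Detection calls were not used, and precision is limited by the number of arrays. No scaling was applied, since array medians differed by 3.66%, under the limit of 5%.

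Differences of log2(value + 16) were fitted in R 4.3.3 by limma 3.58.1 (eBayes with an intensity trend, no replicate block) over all genes, or over all probe sets, after leaving out 62 control probe sets. The pseudocount understates changes of dim genes. The platform table named 1 gene for 41091 probe sets, several for 1801 and none for 11721. Of those with 1 gene, 41037 were matched by gene identifier to a RefSeq table (GRCh38.p14) and took its symbol. The fit had 2 residual degrees of freedom, 8.78 after moderation. Same-numbered replicates did not deviate together across all genes (r = 0.02), but whether they were prepared together was not tested. With replicate numbers as a block, 5127 genes passed, against 4558 without it.

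Members and lists were chosen with earlier results of these data known. The text names all 9 measured members, all HIF pathway and adrenomedullin receptor genes, and up to 4 called genes with the largest change from each other list, with P4HB added after its value was seen. Of 24 housekeeping genes listed for centring, 19 were measured, with 4 higher, 2 lower and a median log2 fold change of −0.04. Of the epithelial markers, 2 were higher, 2 lower and 1 did not pass. Of the luminal prostate markers 1 of 3 measured passed, as did 1 of 5 fibroblast markers, both higher, and 0 of 3 leukocyte and 0 of 4 endothelial markers (limma; 0 and 2 at an unadjusted p under 0.05). Alternatives were the replicate block, 2 normalizations, pseudocounts of 1 and 64, dim genes left out, 1 prior variance, probe set choice, a threshold of 0.01 and each array left out. Figures were drawn with matplotlib 3.10.9.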

Additional observations from a re-analysis of the deposited data

How the results depend on the processing

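Of the 6 genes that passed, only ADM passed in every alternative fitted for it, with log2 fold changes of 0.74 to 0.87 and adjusted p-values up to 0.0278 (limma). KDM3A was the only one of the 6 to change sign, to −0.022 with averaged probe sets, where a probe set with a mean of 8.09 enters the average. With 1 prior variance for all genes, 1 of the 9 genes passed, and 1568 of all genes, 0 of 18 probe sets (4 at an unadjusted p under 0.05, limma) and 10 of the related genes passed. A threshold of 0.01 gave 3 of the 9 genes, 2 of 18 probe sets and 2770 of all genes. Averaged probe sets left 3 of the 9. Centring on the median of housekeeping genes left 3 of 18 probe sets (3 higher, 0 lower) and ended the calls on BNIP3 and NDRG1 (limma adjusted p = 0.0826 and 0.0671). It made 70.3% of all calls higher, against 55.3%. Centring on their mean instead left 6 of the 9 genes (3 higher, 3 lower) and 6 of 18 probe sets (2 higher, 4 lower). With 1 array left out, the counts were 1 to 4 of the 9 genes, 1 to 3 of 18 probe sets, 1828 to 2348 of all genes and 14 to 26 of the related genes, against 6, 5, 4558 and 40 with all arrays. Replicate numbers as a block (replicate block) gave 5127 calls among all genes and the same count of 6 among the 9. Of 24 other named genes that passed, 7 did so in every alternative fitted for them: STC1, HMOX1, PDK1, CRTAP, COLGALT1, PINK1 and SQSTM1. Some of the named genes that had not passed changed sign. EPAS1 ranged from −0.081 to 0.107 with 1 array left out, HIF3A from −0.173 to 0.236, ARNT2 from −0.145 to 0.520, EGLN2 from −0.766 to 0.212, CALCRL from −0.226 to 0.043 and RAMP2 from −0.448 to 0.417. Centring on the housekeeping mean, added after seeing the data, gave −0.0022 for EPAS1, centring on their median gave 5.7e-05 for CALCRL and 0.076 for RAMP2, and a pseudocount of 64 gave 0.0031 for RAMP2. The cause of the other changes was not tested. EGLN3, HIF3A, ARNT2, EGLN2, STC1, CALCRL, RAMP2 and RAMP3 have no value with dim genes left out. Dim probe sets limit what can be said of EGLN3.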
